A study of Mus musculus with 15 samples.

Results

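Clones of mouse pancreatic tumour cells differed in how open the promoter of Sox2 was, and the 5 clones with an open promoter were compared with the 8 in which it was closed, 13 clones of the 15 samples in the labels. The assay was ATAC-seq: a transposase cuts and tags accessible DNA, so reads collect where chromatin is open. The groups were chosen by the measured value at the merged peak over the Sox2 start, chr3:34649250-34650474, in CPM (counts per 1000000, where a library's size is its counts in all peaks scaled by the TMM method). Clones of at least 12 CPM were called open and those below it closed, so the Sox2 peak itself is a description here and carries no test. The open clones were 7160c2, which the labels class as T cell high, and 2699c4, 6422c1, 6556c3 and 6694c2, which they class as T cell low. The closed clones were 2838c3, 6421c2, 6499c4, 6555c3 and 6620c1 of the T cell high class and 6419c1, 6419c5 and 6499c3 of the T cell low class. Every clone had been implanted subcutaneously in untreated C57BL/6 mice, and 3 weeks later 50000 tumour cells were collected by sorting. Each library is 1 clone, so the spread within a group is the spread between clones, and 2 clones of an intermediate T cell class are not analysed here. Clones 6419c1 and 6419c5 share a number in their names, as do 6499c3 and 6499c4. All of these are closed clones. The p-values treat each as an independent clone, apart from an alternative fit that summed clones sharing a number.

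Sox2 encodes a transcription factor of the HMG-box family that holds stem cells in the pluripotent state together with Oct4 and Nanog, and it has further roles in neural progenitors and in the foregut epithelium. The adult pancreas has little or none of it, while Sox2 has been described in part of pancreatic carcinomas. Sox2 lies inside the long non-coding gene Sox2ot, in a stretch of chromosome 3 with few other coding genes and many enhancers.

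The 250 bases before the Sox2 start (chr3:34649745-34649994, plus strand, RefSeq promoter table, GRCm38.p6, the assembly called mm10) are shown because the whole grouping rests on this window. Capitals mark the one match to the core of SOX binding motifs, ACAAAG on either strand.

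Sox2: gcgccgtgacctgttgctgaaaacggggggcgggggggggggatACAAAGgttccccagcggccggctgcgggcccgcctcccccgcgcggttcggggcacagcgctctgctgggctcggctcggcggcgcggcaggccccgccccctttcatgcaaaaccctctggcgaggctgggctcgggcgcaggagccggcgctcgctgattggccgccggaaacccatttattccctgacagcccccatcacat

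The match began 206 bases before the start, and such a match stood in 16.5% of 32851 promoters of the same length. The window was 72% G and C, against a median of 52.4% over all promoters, and held 2 GC boxes (GGGCGG, either strand) and 1 CCAAT box (CCAAT, either strand), which stood in 32.7% and 33.8% of promoters. A match describes the letters and is not a measured binding site.

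The open clones had 15.9 CPM in 7160c2, 17.3 in 6694c2, 21.3 in 6556c3, 21.5 in 2699c4 and 69.7 in 6422c1. The closed clones ran from 0.329 CPM in 6499c3 through a median of 2.64 to 9.35 in 2838c3. Clone 6422c1 stood far above the other open clones, whose values lay close together. The threshold fell between 9.35 CPM in 2838c3, just outside, and 15.9 in 7160c2, just inside. These rest on few reads: 7160c2 had 17 counts (exact Poisson 95% interval 9.25 to 25.4 CPM) and 2838c3 had 36 (6.55 to 12.9 CPM), so the intervals of these 2 clones overlap and the threshold lies within both. By contrast 6422c1 had 208 counts (60.5 to 79.8 CPM), and 6499c3 had 1. Such intervals cover counting error only, and they are too narrow where both ends of a fragment were counted.

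**Figure D1:**
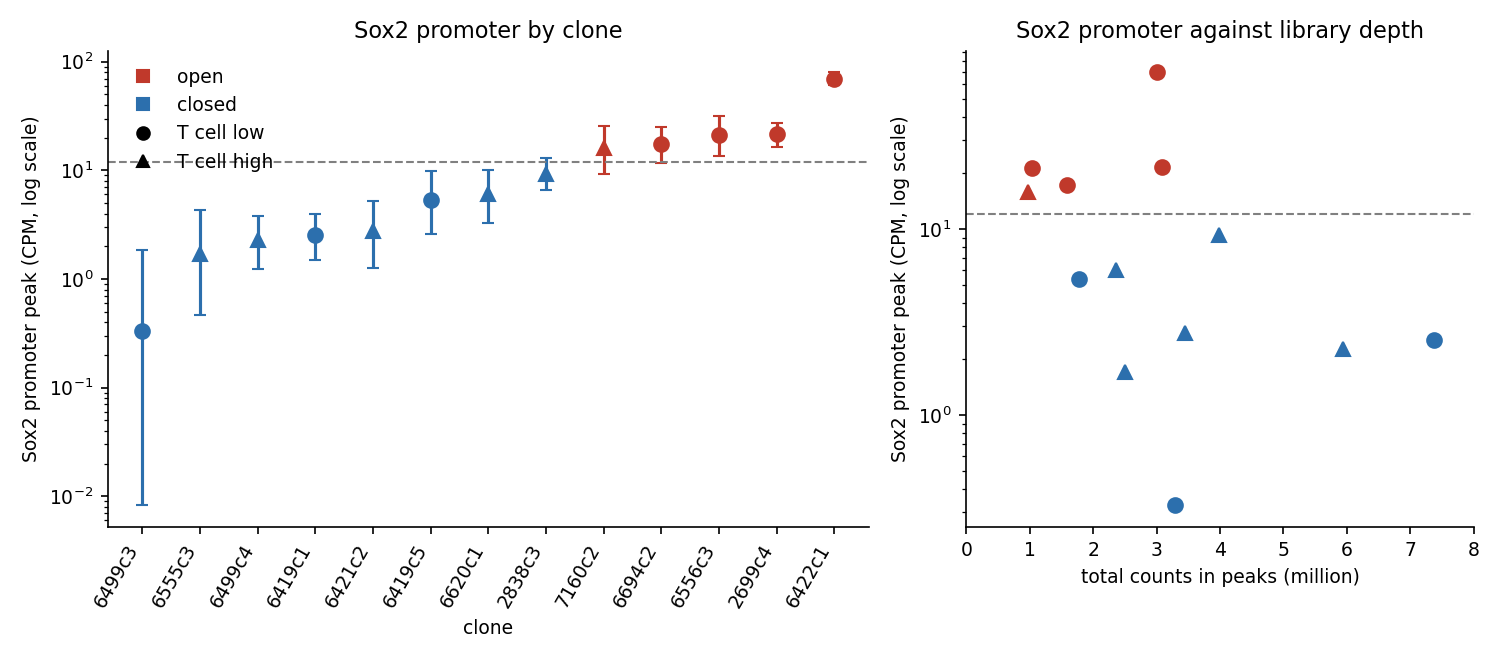
Sox2 promoter CPM on a log axis for each clone with exact Poisson 95% intervals (left), and the same CPM against the total counts in peaks (right). Red marks open and blue closed clones, circles T cell low and triangles T cell high, and the dashed line is 12 CPM. The 5 open clones sit between 15.9 and 69.7 CPM, and 3 of them are the libraries of fewest counts.

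Depth differed between the groups. Open libraries held 968296 to 3081734 counts in peaks (median 1584299) and closed libraries 1779170 to 7369228 (median 3367887), and 3 open libraries, 7160c2, 6556c3 and 6694c2, had fewer counts than any closed library. The mean log2 total was 20.7 ± 0.807 (SD, n = 5) in open and 21.7 ± 0.686 (SD, n = 8) in closed clones, a difference of -1.02 (exact permutation test, two-sided p = 0.0365, Benjamini-Hochberg adjusted p = 0.256 over 7 tests of single values). With 8 of the 13 libraries left out one at a time the unadjusted p was no longer under 0.05. Peaks near gene starts, within 1 kb, took 43.4% ± 2.05 of the counts in open and 43.5% ± 3.35 in closed clones (exact permutation p = 0.917, adjusted p = 0.917). Of the open clones 4 of 5 were T cell low, and of the closed clones 5 of 8 were T cell high (Fisher's exact test, two-sided p = 0.266, adjusted p = 0.375). The leading 2 principal components of all tested peaks, with 18.1% and 12.6% of the variance, overlapped between the groups (exact permutation p = 0.118 and 0.268, adjusted p = 0.275 and 0.375).

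Sort purity was read at gene starts. Of the 5 epithelial markers, Epcam, Cdh1, Krt8, Krt18 and Krt19, all had a peak, with a summed level of 84.2 to 145 CPM in open and 76.4 to 205 in closed clones. All 5 were lower in open clones (median log2 fold change -0.34), none at an unadjusted p under 0.05. T and NK cell markers (Cd3e, Cd3d, Cd2, Cd28, Nkg7) and endothelial markers (Pecam1, Cdh5, Kdr, Tek, Tie1) had a tested peak for 0 of 5 genes each. Macrophages showed 1 of 5 (Cd68), fibroblasts 2 of 5 (Col1a1, Postn), keratinocytes 2 of 5 (Ivl, Lor), Merkel and hair follicle cells 1 of 5 (Krt20), and leukocytes 3 of 5 (Ptprc, Cd53, Coro1a; summed level 30.8 to 67.0 CPM in open and 17.2 to 71.1 in closed clones). Of Schwann cell genes Sox10, Ngfr and Foxd3 had no tested peak, while Erbb3 had 54.9 to 75 CPM in open and 65.4 to 185 in closed clones (log2 fold change -0.67 ± 0.22, edgeR adjusted p = 0.858, unadjusted p = 0.00577). The summed levels overlapped between the groups in each list with a peak given here, as did the values of Erbb3.

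Around Sox2, 27 peaks between chr3:34019498 and 35482810 were left out of every test and are described only. The promoter peak was the single one of the 27 at which the groups did not overlap, as the rule made it. The mean of the open clones was above that of the closed clones at 22 of the other 26 peaks. Both coding neighbours on the upstream side were open in every clone: the start of Fxr1, an RNA-binding protein gene, had 51.1 to 85.8 CPM, and that of Dnajc19, a mitochondrial import gene, 15.4 to 36.0, and the groups overlapped at both.

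Over the 17 upstream peaks, 343 to 6.95 kb before the Sox2 start, the summed accessibility was 142 CPM in 7160c2, 219 in 6556c3, 253 in 2699c4, 255 in 6694c2 and 332 in 6422c1. Among the closed clones it was 82.2 in 6421c2, 108 in 6499c3, 129 in 6555c3, 144 in 6419c1, 179 in 6419c5, 208 in 6499c4, 226 in 6620c1 and 422 in 2838c3. Thus 2838c3, closed by the rule, had the highest sum of all 13 clones and was the highest clone at 9 of these 17 peaks and at 12 of the 26 peaks other than the promoter. At chr3:34565379-34565909, 84086 bp before the start, it had 27.3 CPM against 1.23 to 15.5 in the other 12 clones. The nearest peak to the promoter, chr3:34642466-34643043, 6952 bp away, was low everywhere, at 0.852 to 8.86 CPM, and overlapped between the groups.

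Downstream, the 6 peaks from 35.1 to 416 kb summed to 28.0 CPM in 7160c2, 52.0 in 6694c2, 61.3 in 6422c1, 75.9 in 2699c4 and 103 in 6556c3, and to 10.2 to 32.2 CPM in 7 closed clones and 87.5 in 2838c3. The open clones differed from one another in which downstream peak was accessible. At chr3:34685108-34685855, 35113 bp after the start, 6556c3 had 22.2 CPM and 6422c1 21.8, while 2699c4 had 2.04, 7160c2 3.73 and 6694c2 6.57. At chr3:34965726-34966460, 315731 bp after the start, 6556c3 was again the highest but 2699c4 and 6422c1 changed places: 6556c3 had 16.8 CPM, 2699c4 15.7, 6694c2 10.8 and 7160c2 9.34, while 6422c1, the clone with the most open promoter, had 0.335. Closed clones ran from 0.852 to 7.89 CPM there.

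**Figure D2:**
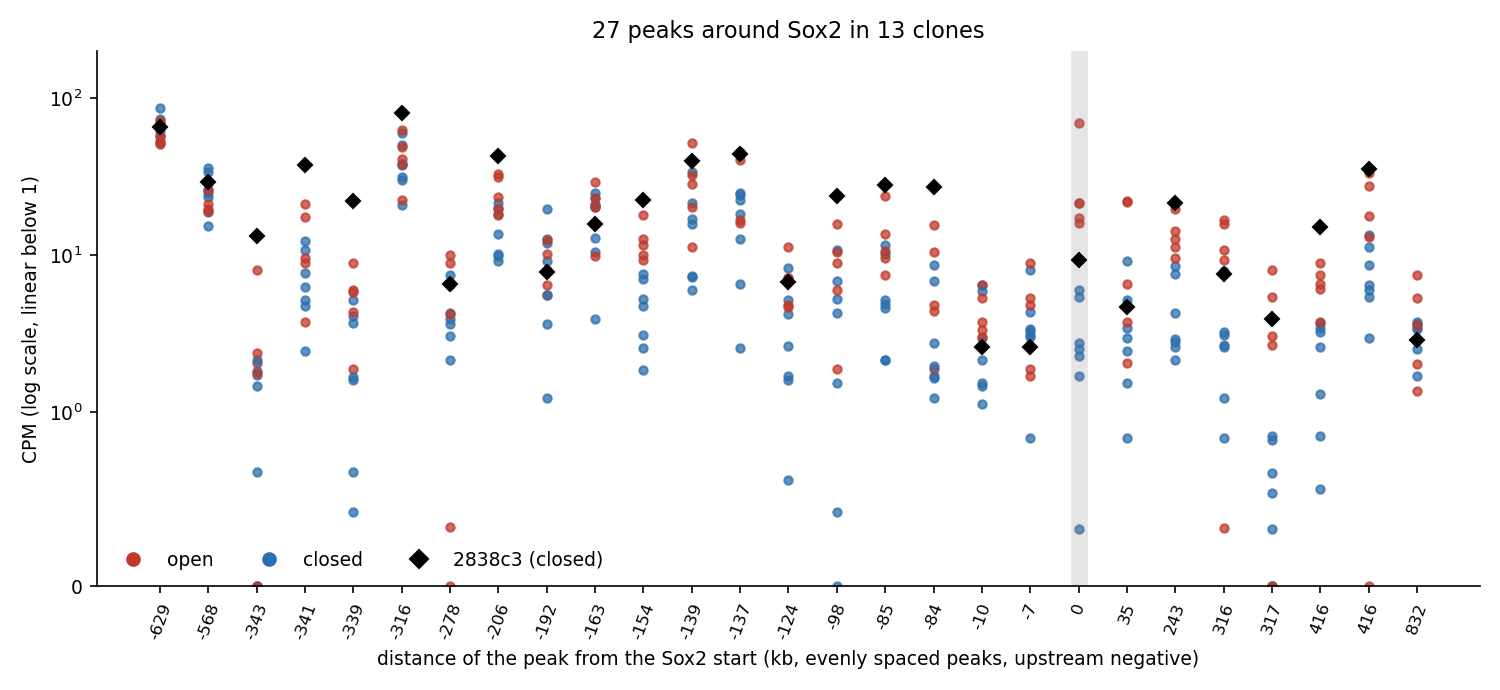
CPM (log axis, linear below 1) of the 27 peaks around Sox2 in each clone, ordered by distance from the Sox2 start in kb. Red points are open clones, blue points closed clones and black diamonds the closed clone 2838c3, which is the highest clone at 12 of the 26 peaks other than the promoter (grey band).

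Outside that stretch no peak passed the test. Of 61878 peaks with enough counts, 0 had an adjusted p under 0.05 between open and closed clones in either direction (0.0%; edgeR quasi-likelihood test, smallest adjusted p 0.317). At an unadjusted p under 0.05 there were 3417 peaks (5.52%), of which 1313 were higher (2.12%) and 2104 lower (3.4%) in open clones. That split turned with the tool, since limma-voom, which called 0 peaks, had 3015 at that level (4.87%), 1918 higher (3.1%) and 1097 lower (1.77%). DESeq2 called 4 (0.00646%), 3 higher (0.00485%) and 1 lower (0.00162%), at Prr5, Trib2, Sp9 and Utrn, and had 4013 peaks at an unadjusted p under 0.05 (6.49%). On the same peaks the T cell class of the clones, 6 high against 7 low, gave 0 calls in edgeR as well (0.0%), with 4316 peaks at an unadjusted p under 0.05 (6.98%). In counts simulated for this comparison over 59499 tested peaks, edgeR found 11.1% of 189 peaks given a 2-fold change, 67% of 188 at 4-fold and 93.1% of 189 at 8-fold. Most 2-fold changes were thus missed in that simulation. Its rates depend on the number of peaks changed. The simulated peaks were drawn independently, without shifts shared along a chromosome.

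Among peaks higher in every open clone, the one with the smallest p lay over the start of Prr5 (chr15:84662760-84663560), which encodes a subunit of the mTOR complex 2. Open clones had 12 CPM in 6694c2, 14.3 in 2699c4, 14.9 in 7160c2, 16.7 in 6422c1 and 17.7 in 6556c3, and closed clones 1.61 to 7.16 (median 3.77). Every open clone was above every closed one, with a log2 fold change of 1.87 ± 0.38 (SE), an edgeR adjusted p of 0.317 and a DESeq2 adjusted p of 0.0351. Groups did not overlap in this direction at 56 of the 61878 tested peaks (0.0905%). The estimate was between 1.74 and 2.20 over the alternatives with 2 groups and was 1.92 with the T cell class in the model.

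Another such peak, chr12:15838138-15838609, lay 21353 bp from the start of Trib2, which encodes a pseudokinase of the Tribbles family. Its open clones had 7.77 CPM in 6694c2, 7.97 in 6556c3, 8.40 in 7160c2, 9.04 in 6422c1 and 9.53 in 2699c4, against 0.852 to 3.64 (median 1.90) in closed clones. The log2 fold change was 2.11 ± 0.44 (edgeR adjusted p = 0.317, DESeq2 adjusted p = 0.0498). One more lay inside the record of Sp9, a zinc finger transcription factor of neural development (chr2:73273191-73274619, 1265 bp from the start). There 6422c1 had 12.1 CPM, 2699c4 14.6, 6694c2 16.1, 7160c2 16.8 and 6556c3 31.9, and closed clones 2.58 to 11 (median 5.15). The highest closed clone, 6421c2, came close to the lowest open one, and the log2 fold change was 1.68 ± 0.36 (edgeR adjusted p = 0.341, DESeq2 adjusted p = 0.0498). Inside the gene of Tnk2, a non-receptor tyrosine kinase, a peak 28401 bp from the start had 18.7 to 34.4 CPM in open and 7.53 to 16.4 in closed clones, also without overlap (log2 fold change 1.14 ± 0.27, edgeR adjusted p = 0.472).

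At another 3 peaks higher in open clones the groups overlapped. A single clone stood well above the rest at Tbx3 and Aqp4, while the open values at Zfp521 were more graded. At the start of Tbx3, a T-box factor that belongs to the pluripotency network, 6556c3 had 69.1 CPM while the other open clones had 3.06 to 10.8 and closed clones 0.852 to 6.88. The log2 fold change of 2.70 ± 0.67 (edgeR adjusted p = 0.573) became 0.92 without 6556c3. By Aqp4, a water channel gene, 6422c1 had 59.6 CPM, 2699c4 20.8 and 6556c3 15.9, the remaining open clones 9.34 and 14.3, and closed clones up to 14.5 (log2 fold change 2.06 ± 0.52, edgeR adjusted p = 0.593). Over the start of Zfp521, a zinc finger cofactor of progenitor cells, 2699c4 had 29.6 CPM, 6422c1 19.1 and 6694c2 15.5, and the remaining open clones 8.40 and 8.86, against 1.63 to 11.1 in closed clones. Its log2 fold change was 1.59 ± 0.42 (edgeR adjusted p = 0.702) and 1.25 without 2699c4.

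At another 4 named peaks the 3 shallow open libraries carried much of the difference. By Zfp992, of a family of near-identical zinc finger genes whose reads cannot be placed with certainty, 6556c3 had 59.4 CPM, 7160c2 52.3 and 6694c2 31.1, while 2699c4 had 10.9 and 6422c1 7.37, within the closed range of 4.26 to 12.9. The log2 fold change there was 1.81 ± 0.41 (edgeR adjusted p = 0.396) with all libraries and 0.00187 without the 3 shallow ones. The peaks by Gm40363 and Gm52481, which are predicted genes, and by Mid1, a ubiquitin ligase gene at the pseudoautosomal boundary, were likewise highest in 6556c3 and 6694c2. Without the 3 libraries their log2 fold changes went from 1.32 to 0.59 for Gm40363, from 1.55 to 0.75 for Gm52481 and from 1.54 to 0.73 for Mid1. The part of library depth or of read placement in these values was not tested.

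Lower in open clones with the smallest p was a peak inside Utrn, the gene of the dystrophin relative utrophin (chr10:12704226-12704718). It had 0 counts in 7160c2, 2699c4, 6422c1 and 6556c3 and 2 counts (1.2 CPM) in 6694c2, against 2.86 to 12.9 CPM (median 5.79) in closed clones. No open clone reached the closed range, but 3 counts would equal 2.8 CPM in 7160c2 and 2.66 in 6556c3, close to the lowest closed value of 2.86, so these 2 libraries bear little on it. Pooled over clones, 2 counts in open against 169 in closed libraries gave a level 27.6-fold higher in closed clones (exact 95% interval 7.53 to 230.0, counting error only). The peak was picked from these same values, and pooling ignores the spread between clones. The interval therefore does not bear on whether the groups differ. The fitted log2 fold change was -4.64 ± 0.83 (edgeR adjusted p = 0.317, DESeq2 adjusted p = 0.0351, and 0.0259 in edgeR with depth as a covariate). In that last fit 33 of the 34 called peaks lay in the stretch around Myc described below. With that stretch left out and depth as a covariate, 0 peaks were called, so the Utrn peak was not called either. Groups did not overlap in this direction at 94 of the 61878 tested peaks (0.152%).

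Among the 12 peaks of smallest p lower in open clones, those over the starts of Napb, Vstm5 and Xpot also did not overlap between the groups. Napb encodes a SNAP protein of vesicle fusion, and its start (chr2:148731603-148732861) had 17.7 CPM in 6556c3, 19.7 in 2699c4, 24.3 in 7160c2, 25.7 in 6694c2 and 29.1 in 6422c1, against 34 to 61.9 (median 49.0) in closed clones. This was a 2.01-fold difference (log2 fold change -1.0 ± 0.22, edgeR adjusted p = 0.341). Vstm5, an immunoglobulin-domain membrane protein gene (chr9:15237882-15239919), had 21.3 CPM in 6556c3 and 32.3 to 36.5 in the other open clones, against 43.4 to 165 (median 61.6) in closed clones (-1.34 ± 0.30, edgeR adjusted p = 0.396). Xpot, the tRNA exportin gene (chr10:121625835-121626935), had 53.2 to 71.2 CPM in open and 79.0 to 168 (median 109) in closed clones (-0.80 ± 0.20, edgeR adjusted p = 0.513).

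The 250 bases before these starts and before that of Prr5 are given for comparison with the Sox2 window, since among the 12 peaks of smallest p in each direction they cover a gene start and all open clones lay on one side of all closed clones. They come from the same RefSeq table and build: Prr5 chr15:84662956-84663205 plus strand, Napb chr2:148732421-148732670 minus strand, Vstm5 chr9:15238795-15239044 plus strand and Xpot chr10:121626333-121626582 minus strand. None holds the ACAAAG core on either strand, so no letters are in capitals.

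Prr5: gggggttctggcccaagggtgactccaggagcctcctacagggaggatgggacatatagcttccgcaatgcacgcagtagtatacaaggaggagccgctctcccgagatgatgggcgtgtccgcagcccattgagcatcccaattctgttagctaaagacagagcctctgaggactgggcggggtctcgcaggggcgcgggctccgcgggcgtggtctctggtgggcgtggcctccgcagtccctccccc

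Napb: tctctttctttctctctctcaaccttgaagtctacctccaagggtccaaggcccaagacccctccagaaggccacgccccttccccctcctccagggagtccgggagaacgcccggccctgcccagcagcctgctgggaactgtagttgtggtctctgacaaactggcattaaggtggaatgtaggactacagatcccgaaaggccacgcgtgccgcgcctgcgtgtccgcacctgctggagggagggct

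Vstm5: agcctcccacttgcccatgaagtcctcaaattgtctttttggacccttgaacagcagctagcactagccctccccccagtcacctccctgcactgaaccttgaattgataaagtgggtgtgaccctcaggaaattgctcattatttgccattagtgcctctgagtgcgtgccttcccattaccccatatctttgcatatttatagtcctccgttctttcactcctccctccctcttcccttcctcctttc

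Xpot: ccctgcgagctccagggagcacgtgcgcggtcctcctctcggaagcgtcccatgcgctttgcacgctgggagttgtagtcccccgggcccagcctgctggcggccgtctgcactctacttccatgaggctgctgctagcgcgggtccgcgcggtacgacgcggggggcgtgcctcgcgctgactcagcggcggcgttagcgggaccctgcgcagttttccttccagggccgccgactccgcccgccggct

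Their share of G and C was 64% for Prr5, 61.2% for Napb, 49.6% for Vstm5 and 71.6% for Xpot. Prr5 had 1 GC box and 1 CCAAT box, Xpot 1 GC box and 1 AP-1 motif (TGANTCA, either strand, found in 6.75% of promoters), and the other two had none of these motifs. The absence of the SOX core says only that those letters are not in these windows.

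**Figure D3:**
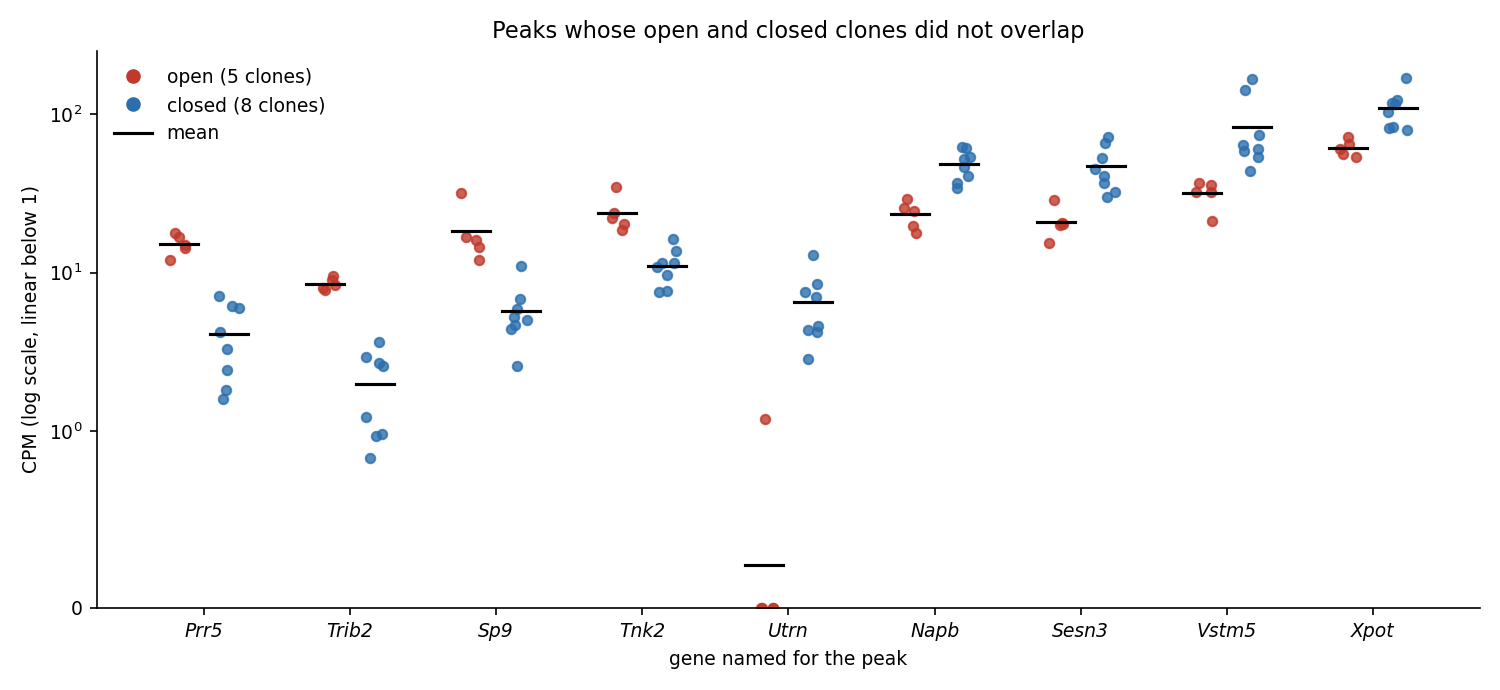
CPM (log axis, linear below 1) at those of the 12 peaks of smallest p in each direction whose groups did not overlap, by gene, with open clones in red, closed clones in blue and the group mean as a bar. Prr5, Trib2, Sp9 and Tnk2 are higher in every open clone and Utrn, Napb, Sesn3, Vstm5 and Xpot lower.

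Among the other named peaks lower in open clones, 3 were neighbours on chromosome 9 with Vstm5 as one of them. The peak 810 bp from the start of Sesn3, a stress-induced regulator of mTOR complex 1 (chr9:14274983-14275491), had 15.3 to 28.7 CPM in open and 29.9 to 71.3 in closed clones (log2 fold change -1.13 ± 0.25, edgeR adjusted p = 0.396). Inside Maml2, a coactivator of Notch (chr9:13681397-13682111), open clones had 7.49 to 14.9 CPM and closed clones 14.3 or more (median 25.7; -1.29 ± 0.30, edgeR adjusted p = 0.415). With offsets that remove each library's running level over neighbouring peaks, these values shrank to -0.62 for Sesn3, -0.72 for Vstm5 and -0.82 for Maml2.

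The remaining lower peaks were those by Zfp36l2, an RNA decay factor gene (17.7 to 44.3 CPM in open, 33.5 to 156 in closed clones), Plcxd3, a phospholipase-like gene (1.36 to 5.60 against 2.08 to 33.4), Abhd17c, a depalmitoylase gene (13.3 to 28.5 against 18.7 to 58.3), and Tapt1 (0.681 to 5.32 against 3.90 to 16.7). Rbbp8nl (18.7 to 42.9 against 40.8 to 71.4 CPM) and Tspan8, a tetraspanin gene of epithelial and stem-like cells (26.6 to 47.2 against 41.0 to 114), completed them. In each the groups overlapped, and edgeR adjusted p was 0.396 to 0.576. The closed clone 2838c3 was the lowest closed clone at 9 of the 12 named peaks lower in open clones, and the highest closed clone at 3 of the 12 named peaks higher in open clones. It is also the closed clone with the most accessible Sox2 promoter. Leaving it and 7160c2 out, the clones nearest the threshold, edgeR again called 0 peaks.

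Beyond the named peaks, several peaks without overlap lay in or nearest to genes of regulators, chosen for mention after their values were seen. Higher in open clones were a peak inside Esrrb, an orphan nuclear receptor of the pluripotency network (11.2 to 15.9 CPM against 2.6 to 10.7, log2 fold change 1.29), one inside the record of Sox12 (3.73 to 7.15 against 0.813 to 3.41, 1.41), one inside Runx1 (5.36 to 13.3 against 0 to 4.93, 1.99), and the start of Wnt5b, a secreted WNT ligand (10.6 to 25.5 against 0.86 to 9.81, 1.23). Lower were a peak 60034 bp from Ifngr1, the interferon gamma receptor gene (10.2 to 19.4 against 20.9 to 60.5, -1.04), on chromosome 10, where the median of the surrounding window of 10 Mb was -0.42, and one 83304 bp from Foxa2, a foregut factor gene (1.77 to 6.7 against 6.75 to 14.6, -1.14). Both lie beyond the 50 kb used elsewhere to name a peak by a gene. None passed the test. At the peak over the Sox12 start itself the groups overlapped. It had 6.03 to 48.3 CPM in open and 6.57 to 56.4 in closed clones (log2 fold change 0.63 ± 0.46, edgeR adjusted p = 0.916). Of the 56 peaks without overlap that were higher in open clones 4 covered a gene start (7.14%), as did 12 of the 94 lower ones (12.8%), beside 17.7% of all tested peaks.

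As a class, peaks higher in open clones at an unadjusted p under 0.05 lay farther from genes and held fewer counts. Of the 1313, 12.3% were within 1 kb of a gene start, against 20.5% of the 2104 lower peaks and 20.4% of all tested peaks. The median distance was 39764 bp for the higher, 16424.5 bp for the lower and 18983 bp for all peaks. The median of the mean count was 20.3, 54.8 and 27.5 in the same order. These are descriptions of classes cut by p, and the part that counting noise in shallow libraries has in them was not tested.

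**Figure D4:**
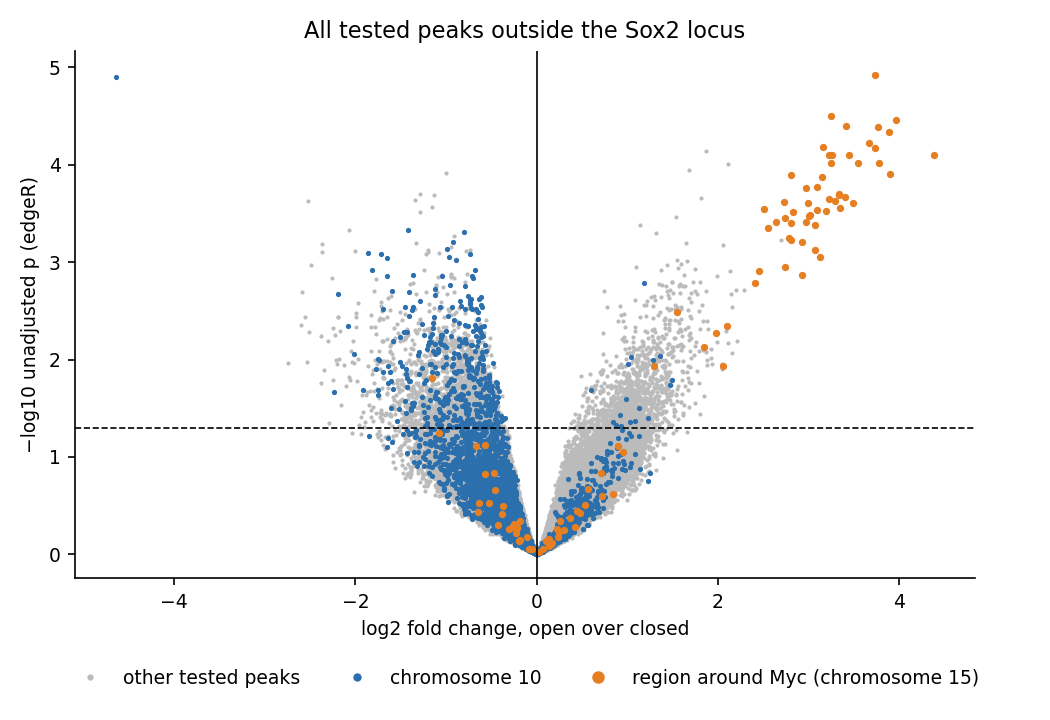
Log2 fold change, open over closed, against −log10 of the unadjusted edgeR p for the 61878 tested peaks, with a dashed line at p of 0.05. Peaks of the region around Myc are orange and fill most of the upper right, peaks of chromosome 10 are blue and lie mostly left of 0, and no peak passed after adjustment.

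The small p-values were concentrated in 1 stretch. Of the 50 peaks with the smallest p, 37 lay in chr15:61-64 Mb, which holds Myc, the gene of a growth-promoting transcription factor. There 2699c4 had a median of 81.7 CPM over 106 tested peaks, and the other 12 clones 5.11 to 8.86, so that 1 open clone stood apart from all others. At the Myc start 2699c4 had 2410 CPM, the other open clones 40.8 in 6556c3, 44.8 in 7160c2, 58.6 in 6694c2 and 66.0 in 6422c1, and closed clones 38.7 to 117 (median 60.6). The other 4 open clones lay within the closed range. The log2 fold change at the start was 3.10 ± 0.72 (edgeR adjusted p = 0.415) and -0.22 without 2699c4, and the median over the 106 peaks went from 2.02 to 0.09. A peak 9097 bp from Myc had 126 CPM in 2699c4, 21.3 in 6556c3, 6.54 in 7160c2, 3.59 in 6694c2 and 2.68 in 6422c1, against 1.40 to 6.24 in closed clones (log2 fold change 3.42 ± 0.67, edgeR adjusted p = 0.317, and 1.43 without 2699c4). The peaks that edgeR called with depth as a covariate, 34 of 61878 (0.0549%), 33 higher (0.0533%) and the Utrn peak lower (0.00162%), and those it called without the 3 shallow open libraries, 43 higher of 66346 (0.0648%), lay in this stretch apart from Utrn. With the stretch left out and depth as a covariate, 0 peaks were called.

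Chromosome 10 carried less of the accessible signal in most open clones. It took 3.69% of all counts in 6694c2, 3.71% in 6422c1, 3.84% in 2699c4, 4.01% in 6556c3 and 5.16% in 7160c2, and 4.11% to 5.33% (median 5.12%) in closed clones. Among closed clones 2838c3 was the lowest, and 7160c2 was the open clone inside the closed range. The difference was -0.884 percentage points (open 4.08% ± 0.617, SD, n = 5; closed 4.97% ± 0.381, SD, n = 8; exact permutation test, two-sided p = 0.0117, Benjamini-Hochberg adjusted p = 0.202 over 20 chromosomes), so it did not pass the correction. Chromosome 13 ran the other way, with 4.10% to 4.97% in open and 3.11% to 4.81% in closed clones (4.51% ± 0.372 against 3.68% ± 0.563, exact permutation p = 0.0202, adjusted p = 0.202), and 2838c3 was the highest closed clone there.

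The lower chromosome 10 signal ran along its whole length. In each window of 10 Mb, apart from the last with 2 peaks, the median log2 fold change was between -0.48 and -0.23, against -0.03 over all tested peaks. Chromosome 10 held 5.08% of the tested peaks but 18.5% of the 2104 lower at an unadjusted p under 0.05, and 34 of the 94 lower peaks without overlap (36.2%). With regional offsets its median log2 fold change went from -0.34 to -0.01 and its share of the lower peaks to 4.58%. Those offsets remove each library's running level over neighbouring peaks, so a shift along the whole chromosome had to shrink. Among T cell low clones alone, 4 open against 3 closed, the difference in share was -1.40 points (exact permutation p = 0.0286, unadjusted, the smallest that design allows). This subset leaves out the open clone inside the closed range and the lowest closed clone, both T cell high. Chromosome 10 had also been picked for its difference, so this p does not bear on whether the groups differ. All T cell high against all T cell low clones gave 0.461 points (4.87% ± 0.40, n = 6, against 4.41% ± 0.759, n = 7; exact permutation p = 0.212). The starts of Hmga2, Xpot, Tspan8 and Erbb3 and the peaks named for Utrn and Ifngr1 lie on this chromosome: with offsets the log2 fold change of Xpot went from -0.80 to -0.32 and that of Tspan8 from -0.93 to -0.43, while Utrn had -4.20. Accessibility per DNA copy and the number of copies cannot be told apart in these counts.

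**Figure D5:**
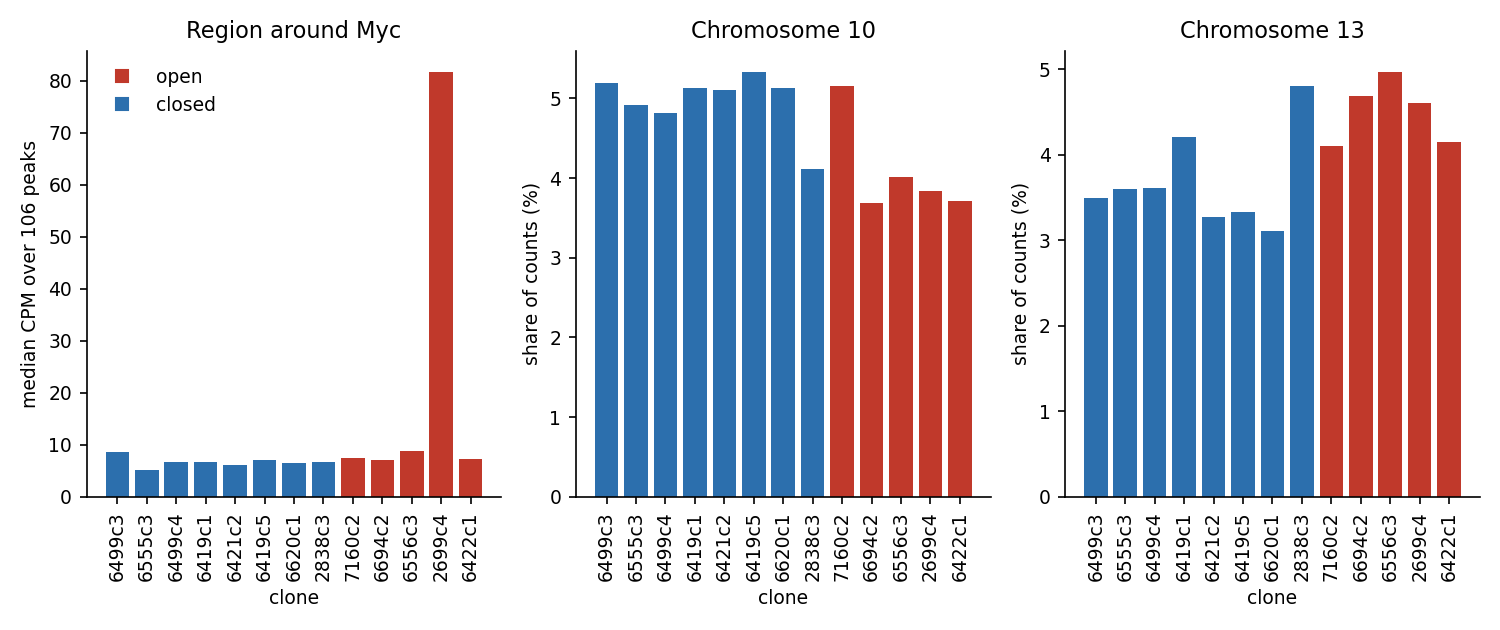
Median CPM over the 106 peaks around Myc (left), and the percent of counts on chromosome 10 (middle) and chromosome 13 (right), for each clone, with closed clones in blue and open clones in red, each in order of Sox2 promoter CPM. Clone 2699c4 stands alone at 81.7 CPM on the left, and on chromosome 10 4 open clones and the closed clone 2838c3 are the lowest.

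Genes that work with Sox2 or lie in pathways it is tied to were read at their gene starts, 1 peak a gene. In 23 lists no member passed the edgeR test. Over all 12373 genes with a tested start peak, on 11179 peaks, 45.8% were higher in open clones and the median log2 fold change was -0.03. Of these peaks 524 had an unadjusted p under 0.05 (4.69%), 142 higher (1.27%) and 382 lower (3.42%).

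In the SOX family 10 of 19 genes had a tested start peak, 6 higher and 4 lower in open clones (median 0.05). Sox11, a progenitor factor, was the one with an unadjusted p under 0.05, at 2.39 CPM in 6694c2, 5.36 in 6422c1, 38.3 in 7160c2, 39.9 in 6556c3 and 183 in 2699c4, against 2.55 to 72.5 (median 4.13) in closed clones. It varied widely in both groups: 3 open clones were high, as were 2 closed ones, 2838c3 with 72.5 and 6499c3 with 29.9 (log2 fold change 1.81 ± 0.81, edgeR adjusted p = 0.894). Sox4 had 36.5 to 77.3 CPM in open and 27.4 to 60.5 in closed clones. Of 21 pluripotency genes 7 had a tested peak, 4 higher and 3 lower, with Tbx3 and Myc, described above, as those with a small p.

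Among signalling lists, the FGF pathway had 10 of 14 members higher and 4 lower (median 0.04). Fgf2, the ligand that maintains many stem cell cultures, had 3.68 CPM in 6422c1, 4.09 in 2699c4, 7.47 in 7160c2, 13.1 in 6694c2 and 23.9 in 6556c3, against 0.86 to 6.99 in closed clones (log2 fold change 1.42 ± 0.54, edgeR adjusted p = 0.875). The 3 highest were the 3 shallow libraries. Frs2, an FGF receptor adaptor, was at 20.1 to 39.9 CPM in open and 29.9 to 84.5 in closed clones. The WNT list had 9 higher and 9 lower of 18 (median 0.00), with Tcf7l1, a repressor of WNT targets, at 31.8 to 54.1 CPM against a closed range whose highest value was 51.5 (0.59 ± 0.28, edgeR adjusted p = 0.894). NOTCH had 7 higher and 8 lower of 15 (median -0.01), and Hedgehog 6 higher and 3 lower of 9 (median 0.04), with no member at an unadjusted p under 0.05.

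Several lineage lists had fewer members higher in open clones than the 45.8% of all genes. Among epithelial identity genes 5 were higher and 15 lower (median -0.11), among foregut and pancreas factors 5 and 10 (median -0.15), among stem cell and ALDH genes 2 and 10 (median -0.23), and among genes of T cell recruitment and MHC class I 6 and 17 (median -0.12). The housekeeping list was even, 10 higher and 9 lower of 19 (median 0.00). Krt7, a ductal keratin, had 6.57 to 18.7 CPM in open and 4.42 to 32.4 in closed clones, where 2838c3 was the lowest (log2 fold change -0.93 ± 0.38, edgeR adjusted p = 0.894). Muc1, an apical mucin, had 14.9 to 24.4 against 21.3 to 50.3 CPM (-0.62 ± 0.26, edgeR adjusted p = 0.894), and Nlrc5, the activator of MHC class I genes, 7.09 to 20.5 against 11.9 to 41.1 (-0.74 ± 0.35, edgeR adjusted p = 0.894). These leanings are counts beside a background and were not tested as sets.

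Mesenchymal genes held the one list member whose groups did not overlap, Hmga2, a chromatin protein gene on chromosome 10. Its start had 36.4 CPM in 7160c2, 41.6 in 6556c3, 46.0 in 6694c2, 49.4 in 2699c4 and 49.9 in 6422c1, against 56.1 to 115 (median 73.3) in closed clones (log2 fold change -0.74 ± 0.19, edgeR adjusted p = 0.612). The median of the surrounding window of 10 Mb was -0.48. The list as a whole had 5 higher and 10 lower of 15 (median -0.01). Basal and squamous genes had 6 higher and 4 lower of 10 (median 0.24). Neural and neuroendocrine genes had 4 higher and 3 lower of 7 (median 0.03). Nes, the intermediate filament nestin of neural progenitors and a known Sox2 target, had 12 CPM in 6694c2, 13.7 in 6422c1, 17.4 in 2699c4, 33.7 in 6556c3 and slightly more in 7160c2, against 7.97 to 29.0 in closed clones (0.75 ± 0.36, edgeR adjusted p = 0.894).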

How the data were processed

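The authors deposited whole-number read counts per merged peak, not normalized, made with featureCounts 1.5.3 per the file headers. The submitters' processing notes name mm10 as the build and DESeq2 as a tool. For the aligner and the peak caller, the sources used here give no name. Of 67945 peaks, 27 around Sox2 were left out of tests, and 61878 passed edgeR's filterByExpr by group. Groups were tested with edgeR 4.0.16 (TMM, quasi-likelihood, R 4.3.3), two-sided, with Benjamini-Hochberg adjusted p under 0.05 as a call. Alternatives used DESeq2 1.42.0, limma 3.58.1, other filters, thinning, depth or T cell class as covariates, regional offsets and libraries left out. Peaks were matched to RefSeq genes of GRCm38.p6. Start positions were listed for 17492 of 21900 coding genes and the ends of the gene record served for the rest. A gene named for a peak is the nearest or the one holding it, not a shown target.

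The threshold, the members, the lists and the comparison were chosen with earlier results of these data known. Named peaks were the 12 of smallest p in each direction, 1 a gene and within 50 kb or inside a gene record, plus the 2 members of smallest p of each list. As none passed, all are values that did not pass. Tests were checked on simulated counts. The replicates are single clones, and nothing in the labels says how many tumours were pooled. Some genes of the lists are not reported here.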

Additional observations from a re-analysis of the deposited data

Results flagged for a closer look

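Within a group of 4 to 10 clones, distances between clones were taken on a log scale. A clone was marked where its distance to the next clone took an unusually large part of the group's range by Dixon's 95% limit. The marks depend on that scale. At the Tbx3 start 6556c3 had 69.1 CPM and the other open clones 3.06 to 10.8, and it was not marked. Over 48 groups, the open and the closed clones at the 12 peaks of smallest p in each direction, 3 were marked, and chance marks about 1 in 20. At Vstm5 6556c3 had 21.3 CPM, with the other open clones at 32.3 to 36.5. At the Utrn peak 6694c2 had 1.2 CPM, from 2 counts, with the other open clones at 0. By Abhd17c 2838c3 had 18.7 CPM, with the other closed clones at 34.8 to 58.3, and so stood among the open clones there.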

How the results depend on the processing

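The count of called peaks was 0 in edgeR with all libraries and under 28 of 31 alternatives, every left-out library included (range 0 to 0). It was 4 with DESeq2, 34 with depth as a covariate and 43 without the 3 shallow open libraries, the last of which was added after the data were seen. With a library left out, the difference in log2 total counts ran from -1.23 to -0.812 (8 of 13 no longer at an unadjusted p under 0.05) and that in the gene-start share from -1.06 to 0.729 points, with 6 of 13 reversed. The chromosome 10 difference, added later, ran from -1.15 to -0.787 points (unadjusted exact permutation p 0.00202 to 0.0265). Of 61 named log2 fold changes 50 kept their sign under all alternatives. Reversed were Sox4 with regional offsets (-0.06), the Myc start without 2699c4 (-0.22), and, without the 3 shallow open libraries, Kif7 (-0.03), Jag1 (0.05), Cdh1 (0.10), Coro1a (-0.29) and Cd68 (0.44). Cd68 was also 0.45 with depth as a covariate, 0.42 with that and without the Myc stretch, and 0.43 in libraries of middle depth, where Postn was -0.12. With a library left out Cd68 ran from -0.74 to 0.09, Col1a1 from -0.00455 to 0.26, Lor from -0.09 to 0.36, Krt20 from -0.32 to 0.13 and the Myc start from -0.22 to 3.40. Krt20 was 0.00406 after thinning and 0.08 with clones of 1 parental number summed, and Lor -0.01 with library quality weights. The cause of these changes was not tested, apart from 2699c4 at Myc. No paired analysis was possible because the replicate numbers follow accession order and each clone is in 1 group.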
